A study of Drosophila melanogaster with 4 samples.

Results

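Arm 3L is the left arm of the third chromosome of Drosophila melanogaster, and the regions described here are the H3K27me1 clusters of its euchromatic part. They are the authors' regions of significant enrichment on 3L whose midpoint lies between bases 1 and 22500000 of FlyBase release 5, from the telomere end at base 1 towards the centromere. The arm is 24543557 bases long, so its last 2.04 Mb at the centromere end are left out. The rule kept 1326 of the 6501 clusters of H3K27me1 ChIP replicate 1 (20.4%), 1396 of the 6601 clusters of replicate 2 (21.2%) and 1901 of the 9662 clusters of the authors' list for the set of both replicates (19.7%). It uses position alone, so widths, scores and spacing played no part in the choice.

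Nuclei were taken from fly heads of the Oregon-R strain (wild type, developmental stage Mixed Adult), raised in population cages. Chromatin was fixed with formaldehyde, sonicated and precipitated with a Millipore antibody against H3K27me1. The 2 H3K27me1 ChIP libraries were accompanied by 2 Input libraries, one for each ChIP list according to the labels. No second genotype or treatment was studied, and since the labels do not describe how the replicates were collected, their spread may be technical. A head holds neurons, glia, photoreceptors, muscle and fat body, so each list is an average over cell types.

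Lysine 27 of histone H3 can carry 1, 2 or 3 methyl groups, all of them placed by the enzyme E(z) of Polycomb repressive complex 2. The trimethylated form marks broad domains silenced by Polycomb proteins, and the demethylase Utx can remove its methyl groups. The monomethylated form mapped here is the first of these states, and in mammalian cells it is known from the bodies of transcribed genes. The lists give positions of enrichment, and gene annotation of genome release 5 was not used here, so regions are described by their place and genes are not named.

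The clusters took up a minor part of 3L, and both replicates gave nearly the same figure. The covered share was 22.7% in replicate 1, with 5.10 Mb in clusters, and 22.4% in replicate 2, with 5.04 Mb. Their mean was 22.5% ± 0.181 (SD, n = 2). Replicate 1 held 58.9 clusters per Mb and replicate 2 held 62.0, a mean of 60.5 ± 2.20 (SD, n = 2). Replicate 2 thus had more clusters over slightly less sequence. The replicate-set list, which is the authors' own product and has no n, covered 33.7% of the arm with 84.5 clusters per Mb.

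Set beside 2L and 3R without 2 Mb at their centromere ends, 3L was the most covered of these arms in both replicates. The share was 22.5% ± 0.181 on 3L, 18.9% ± 0.284 on 2L and 20.5% ± 0.0175 on 3R (SD, n = 2 each). The covered share of 3L was 1.19 and 1.20 times that of 2L in replicates 1 and 2, and 1.11 and 1.09 times that of 3R. These differences exceeded the spread between replicates. Clusters per Mb numbered 60.5 ± 2.20 on 3L, 51.9 ± 1.92 on 2L and 53.8 ± 2.32 on 3R (SD, n = 2 each). Median widths did not follow the same order, at 2651 ± 56.6 bp on 3L, 2746 ± 181 bp on 2L and 2804 ± 124 bp on 3R. In the replicate lists the higher coverage of 3L thus went with more clusters per Mb and not with a larger median width. The replicate-set list differed in width, with medians of 2615 bp on 3L, 2439 bp on 2L and 2611 bp on 3R. Its clusters per Mb numbered 84.5 on 3L, 76.2 on 2L and 76.2 on 3R. No test was made, because the arms were compared within the same 2 libraries, and 2 pairs of values are too few for one.

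Most clusters of the arm were a few kilobases wide. In replicate 1 the width ran from 1301 to 54028 bp with a median of 2691 bp, and the middle 80% lay between 1461 and 7599 bp. In replicate 2 it ran from 1301 to 29075 bp with a median of 2611 bp, and the middle 80% lay between 1460 and 6807 bp. Clusters under 2 kb made up 31.7% and 33.0% of the members of replicates 1 and 2 and held 13.3% and 14.6% of the covered length. Broad clusters of 10 kb or more numbered 63 and 59. They were 4.75% and 4.23% of the members, yet held 18.9% and 16.6% of the covered length. The widest 10% of members held 30.0% ± 0.830 of the covered length on 3L, 28.2% ± 0.412 on 2L and 28.7% ± 0.437 on 3R (SD, n = 2 each).

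The score comes from the authors, has no stated unit, and is used here mainly to describe clusters within a list. Where scores of different lists are set side by side, a common scale is assumed and was not checked. Its median on 3L was 0.685 in replicate 1, with a range of 0.263 to 1.57, and 0.686 in replicate 2, with a range of 0.221 to 1.44. The median was 0.686 ± 0.000495 on 3L, 0.697 ± 0.00908 on 2L and 0.703 ± 0.0121 on 3R (SD, n = 2 each). In the replicate lists the arm with the largest covered share thus had the lowest median score of these arms, although the medians lay close together. This order did not hold in the replicate-set list, where the medians were 0.472 on 3L, 0.466 on 2L and 0.474 on 3R. Wider clusters scored higher. Spearman's rho between width and score was 0.808 over the 1326 members of replicate 1 and 0.796 over the 1396 of replicate 2, where each point is 1 cluster of the same library. Clusters of 10 kb or more had median scores of 1.03 and 1.00, against 0.565 and 0.557 for those under 2 kb.

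Most neighbouring clusters lay a few kilobases apart or closer, with a small number of very long gaps. The median gap between neighbouring members was 3234 bp in replicate 1 and 3257 bp in replicate 2. Gaps under 1 kb were 23.4% of all gaps in both replicates, and 10% of gaps exceeded 31.8 kb and 29.3 kb. The 90th percentile of the gaps was 30.5 ± 1.73 kb on 3L, 41.0 ± 1.47 kb on 2L and 38.2 ± 0.240 kb on 3R (SD, n = 2 each). Gaps of 100 kb or more numbered 35 and 31 on 3L and took up 5.66 and 5.27 Mb in replicates 1 and 2. On 2L, a shorter stretch, there were 40 and 37 such gaps, over 7.16 and 6.63 Mb. Large gaps of this kind thus took up less of 3L than of 2L in both replicates.

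Runs of clusters, taken as neighbours separated by less than 5 kb, joined most members. Replicate 1 formed 519 runs on 3L and replicate 2 formed 552, and 16.1% and 17.3% of members stood alone. Runs of 5 or more clusters numbered 67 and 78 and held 36.1% and 38.1% of the members. The run with the most clusters in replicate 1 had 23 members from 22271290 to 22400077, a span of 129 kb next to the centromere-side limit. The run with the most clusters in replicate 2 began at almost the same place, with 15 members from 22268977 to 22348055. Neighbours were only weakly alike in strength: the rho between the score of a member and that of the next was 0.115 and 0.114, over clusters that share a library.

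Along the arm, coverage was high in the first 5 Mb from the telomere and again near 7.5 to 10 Mb and beyond 20 Mb, with low stretches between. The arm was divided into 9 sections of 2.5 Mb. Section 1, at the telomere end, was covered to 26.9% ± 0.827, and section 2 to 28.4% ± 0.594, the highest mean of the 9. Section 3, from 5 to 7.5 Mb, was covered to 16.0% ± 0.614. Section 4 reached 27.3% ± 0.184 and section 5 had 19.3% ± 0.749. Section 6, from 12.5 to 15 Mb, was the least covered at 13.0% ± 0.418. Sections 7 and 8 had 23.6% ± 0.667 and 22.1% ± 0.323, and section 9, ending at 22.5 Mb, had 26.4% ± 0.335 (SD, n = 2 each). Replicate 1 covered 27.5%, 28.0%, 15.5%, 27.4%, 19.8%, 13.3%, 24.0%, 22.3% and 26.2% of the 9 sections in this order, and replicate 2 covered 26.4%, 28.8%, 16.4%, 27.1%, 18.7%, 12.7%, 23.1%, 21.9% and 26.6%. The difference between the most and the least covered section was far larger than the spread between replicates.

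**Figure D1:**
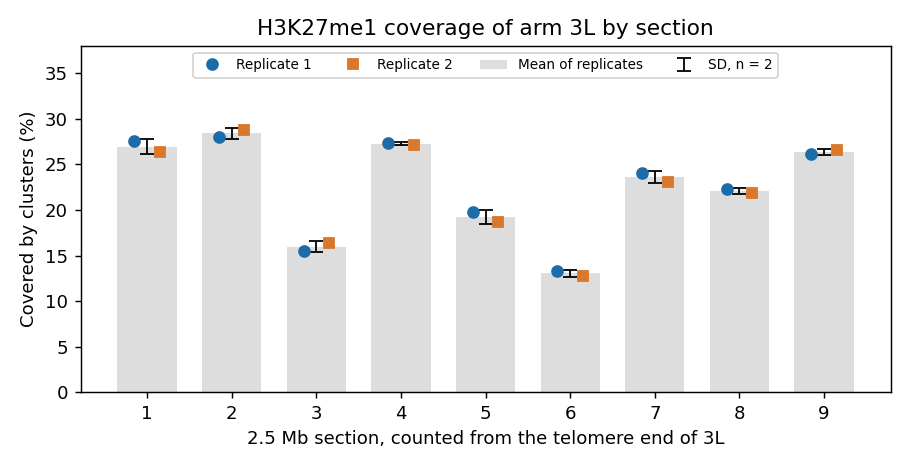
Share of each 2.5 Mb section of 3L covered by H3K27me1 clusters (y axis, %), with sections counted from the telomere end (x axis); bars are means of 2 ChIP replicates, error bars SD, points the replicates. Sections 3 and 6 are the low ones, at 16.0% and 13.0%, and section 2 is the highest at 28.4%.

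The low sections held fewer clusters than the high ones. Section 6 held 94 and 93 members in replicates 1 and 2, and section 3 held 114 and 130, while section 4 held 172 and 186 and section 9 held 177 and 189. Median widths by section ran from 2368 to 3104 bp in replicate 1 and from 2174 to 3196 bp in replicate 2. Section 1 had the highest median score in both replicates, 0.724 and 0.740. In the replicate-set list section 4 had the highest, 0.508, against 0.503 in section 1. In replicates 1 and 2, broad clusters were most numerous at the telomere end. Section 1 held 13 and 14 of 10 kb or more and section 2 held 12 and 11, against 3 and 2 in section 3. Section 5 had 1 and 3 of them although it held 157 and 154 members. In the replicate-set list, section 2 held the most broad clusters, 22, while sections 1 and 9 held 18 each.

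The telomere side was more covered than the rest of the arm in its first 5 Mb, and this excess was small over its first 7.5 Mb. The first 2 sections together were covered to 27.8% in replicate 1 and 27.6% in replicate 2, against 21.2% and 20.9% of the rest of the arm, ratios of 1.31 and 1.32. The same ratio was 1.01 and 1.05 on 2L, and 1.04 and 1.09 on 3R. Counted as clusters per Mb, it was 1.12 and 1.09 on 3L, 1.05 and 1.12 on 2L, and 0.946 and 0.991 on 3R. In the replicate-set list the 3L ratio over the first 5 Mb was 1.20 by covered share and 0.980 by clusters per Mb. For the first 2.5 Mb alone, the ratio of covered shares was 1.25 and 1.20 on 3L, 1.04 and 1.07 on 2L, and 1.13 and 1.19 on 3R, so that 3L and 3R were close in replicate 2. With the telomere side taken as the first 7.5 Mb, the sparse section 3 was included, and the 3L shares were 23.7% and 23.9% against 22.2% and 21.7% for the rest. That ratio was 1.08 ± 0.0223 on 3L, 1.12 ± 0.00141 on 2L and 1.00 ± 0.0448 on 3R (SD, n = 2 each). Counted as clusters per Mb, the first 7.5 Mb of 3L were no denser, at 58.0 and 61.6 against 59.4 and 62.3 for the rest. The first member lay 67523 bases from the start of the sequence in replicate 1 and 67229 in replicate 2. The first one of 10 kb or more followed at 132794 and 132690, with widths of 11615 and 11657 bp.

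Windows of 100 kb showed how unevenly the clusters were placed at a finer scale. Over 225 windows, the mean coverage of both replicates ran from 0% to 72.2% with a median of 20.1%, and the middle 50% lay between 8.42% and 35.2%. Neighbouring windows had little in common. Pearson's r between the coverage of a window and the next was 0.143 on 3L, and 0.0306 at a distance of 2 windows, a description over windows of the same libraries. The coverage of a window thus said little about that of the next. Windows with more members were more covered, with a rho of 0.890 and 0.900 in replicates 1 and 2 over 225 windows. The mean width of the members in a window followed coverage less closely, with a rho of 0.588 over 206 windows and 0.547 over 204.

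**Figure D2:**
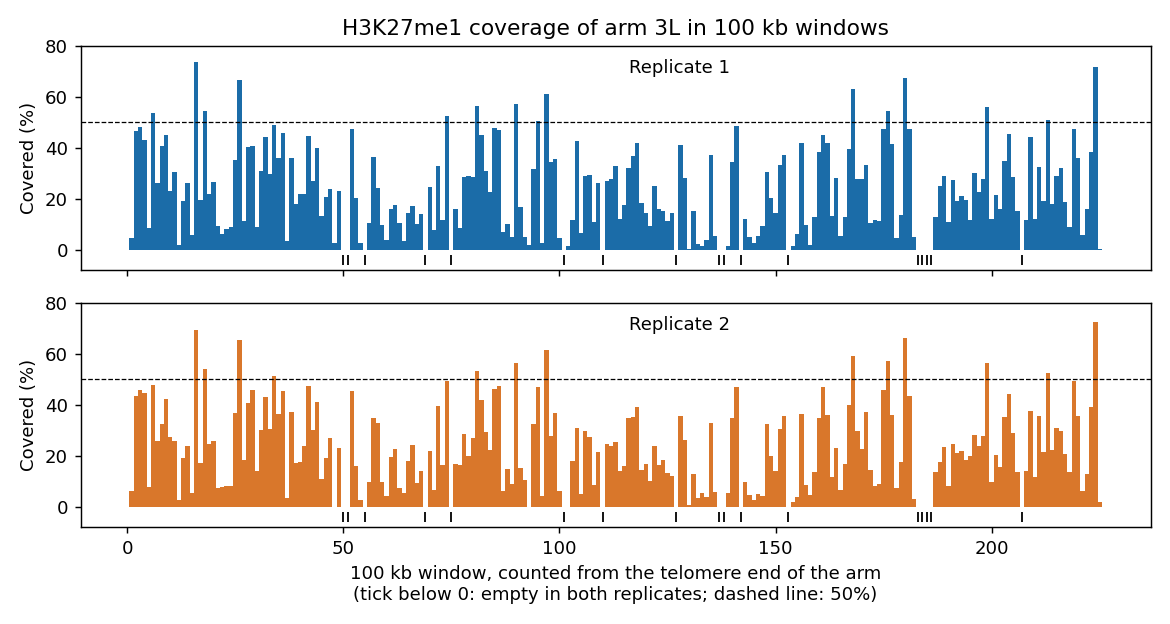
Coverage of 225 windows of 100 kb along 3L (y axis, % of the window in clusters; x axis, window number from the telomere end), replicate 1 above and replicate 2 below; ticks under the bars mark 17 windows empty in both replicates and the dashed line marks 50%. Tall bars are scattered along the whole arm in both replicates, and 4 adjacent empty windows stand to the right of the middle.

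Dense windows, covered to at least 50% in both replicates, numbered 12 of 225 on 3L (5.33%). The background on 2L and 3R was 4.69% of 469 windows, so dense windows were about as frequent there. By the mean of both replicates, the most covered window was 22300001 to 22400000, with 71.9% in replicate 1 and 72.5% in replicate 2. It was followed by 1500001 to 1600000 with 73.8% and 69.2%, which was the higher of these windows in replicate 1. Then came 17900001 to 18000000, with 67.3% and 66.1%, and 2500001 to 2600000, with 66.7% and 65.5%. The next ranks were 9600001 to 9700000 with 61.3% and 61.7%, and 16700001 to 16800000 with 63.1% and 59.2%. The other 6 dense windows had means between 51.9% and 57.0%. None of the 12 lay directly beside another, and none lay beside an empty window.

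Dense windows held from 6 to 20 members in replicate 1 and from 7 to 18 in replicate 2. Their median member width was 3707 and 3672 bp, and 10 of the 12 contained a member of 10 kb or more in each replicate. Together they held 14.8% and 14.5% of the covered length of the arm. The windows differed in build. The top window was made of many pieces, 20 in replicate 1 and 18 in replicate 2, while the window at 2500001 reached its coverage with 6 and 7. In the replicate-set list the top window was covered to 97.3% by 7 clusters.

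Empty windows, with no covered base in either replicate, numbered 17 of 225 (7.56%). The background on 2L and 3R was 10.7% of 469 windows, with 13.3% on 2L and 8.49% on 3R. Of the 17 windows, 8 lay beside another empty one. Sections 3, 6 and 8 held 4 each, section 5 held 2, sections 2, 7 and 9 held 1 each, and sections 1 and 4 held none. The 4 empty windows of section 8 were adjacent, from 18200001 to 18600000. In the replicate-set list 14 of the 225 windows had no covered base. The empty window at 10000001 to 10100000 held 7 replicate-set clusters over 9.14% of its length.

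The widest H3K27me1 domain of the arm and its longest empty stretch lay near each other. The domain was a replicate-set cluster of 54.6 kb from 17958426 to 18012986 with a score of 1.07. Replicate 1 held it as 1 cluster of 54.0 kb with a score of 1.11. Replicate 2 split it into 4 clusters of 15.0, 5.73, 2.07 and 29.1 kb with scores of 0.872, 1.03, 0.566 and 1.21, separated by 1443, 578 and 348 bp. The covered length was 99.0% in replicate 1 and 95.1% in replicate 2, so the split removed little of it. The next 161 kb held 21 replicate-set clusters, 12 clusters of replicate 1 and 14 of replicate 2. The empty stretch began at 18173983 and ran for 438 kb to 18611887 in the replicate-set list. In the replicate lists it began earlier, at 18106002 in replicate 1 and 18105931 in replicate 2, and was 506 kb long in both.

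The other wide domains of the arm lay in several sections. A domain of 38.2 kb, from 2782478 to 2820716, was covered to 96.6% and 96.9% in replicates 1 and 2, in 2 and 3 pieces. A domain of 38.1 kb, from 22281828 to 22319950, was covered to 85.0% and 82.2%, in 4 and 6 pieces. The one from 4592546 to 4626232 (33.7 kb) was covered to 75.4% and 87.1%, the widest difference between replicates among the 10. The domain from 22367470 to 22400804 (33.3 kb) was covered to 77.4% and 81.7% in 6 and 5 pieces. Both of these centromere-side domains reached into the most covered window. The highest scores of the pieces in the domain at 22367470 were 0.786 and 0.834.

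Some domains were unbroken in both replicates. The one from 2556202 to 2585864 (29.7 kb) was 1 cluster of 27.5 kb in replicate 1, with a score of 1.25, and of 27.1 kb in replicate 2, with a score of 1.12. The one from 16045800 to 16074734 (28.9 kb) was 1 cluster of 27.3 kb and of 27.7 kb, with scores of 1.36 and 1.20. The domain near the telomere, from 546430 to 576652 (30.2 kb), was 1 cluster in replicate 2 and 2 clusters only 5 bp apart in replicate 1. The remaining domains of the 10 widest were 8443744 to 8473010 (29.3 kb, covered to 88.8% and 82.2%) and 5150672 to 5177106 (26.4 kb, covered to 88.3% and 82.1%). The last of these lay in the sparsely covered section 3. Inside the 10 domains the replicates left 40 gaps between pieces, with a median of 883 bp and a maximum of 4152 bp.

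**Figure D3:**
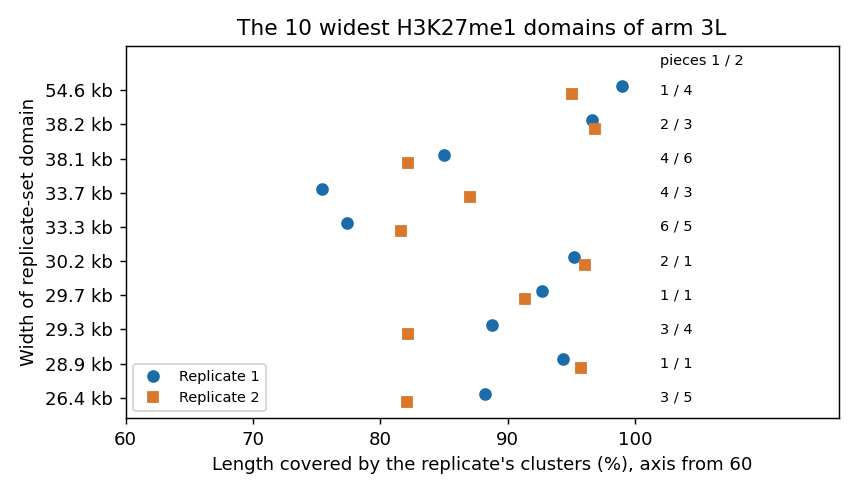
Share of the length of each of the 10 widest replicate-set domains of 3L that lies in clusters of replicate 1 (circles) and replicate 2 (squares), in % (x axis, drawn from 60); rows are domains by width in kb, with the number of pieces per replicate at the right. The 54.6 kb domain is covered to 99.0% and 95.1%, and the 33.7 kb domain shows the widest difference, 75.4% against 87.1%.

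The replicate-set list held 128 members of 10 kb or more, and each of them overlapped both replicates. Their median covered share was 91.3% in replicate 1 and 85.6% in replicate 2, and 119 of the 128 were covered to more than 50% in both. Since that list was made for the same replicates, these shares describe how the lists relate and give no independent check. A single cluster stood for 54 of the 128 in replicate 1 and for 48 in replicate 2. The widest member of each list was on 3L when set beside 2L and 3R. The widest clusters of replicate 1 measured 54.0 kb on 3L, 25.6 kb on 2L and 27.3 kb on 3R, and those of replicate 2 measured 29.1, 21.1 and 27.3 kb.

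The strongest 3L clusters found in all 3 lists were not the widest ones. The highest score belonged to 4806152 to 4824814 (18.7 kb) at 1.48, and the replicates gave it 1.57 and 1.44. It was also the highest-scoring 3L member of each replicate list, as 1 unbroken cluster covering 99.0% and 99.5% of the domain. Next was 13958920 to 13965370 (6.45 kb) with 1.34, and with 1.37 and 1.38 in the replicates, inside the sparse section 6. The cluster at 11767958 to 11782464 (14.5 kb) had 1.31, with 1.31 and 1.35 in the replicates. The cluster at 20122100 to 20133742 (11.6 kb) had 1.28, with 1.36 and 1.28. The cluster at 1325590 to 1330002 had 1.27, with 1.33 and 1.30, and was only 4.41 kb wide. All 5 were single clusters in both replicates, and the cluster at 13958920 lay in the least covered section.

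Long gaps of the replicate-set list were spread over sections 1, 3, 5, 6, 7, 8 and 9. After the 438 kb stretch, the longest were 13509191 to 13865513 (356 kb), 5358283 to 5551465 (193 kb), 20522693 to 20715169 (192 kb) and 6749489 to 6938103 (189 kb). The 10 longest gaps measured at least 151 kb. Of these 10, replicate 1 had covered bases in 2, amounting to 47 and 137 bases, and replicate 2 had covered bases in 2, amounting to 4 and 53. Of the 20 clusters at the edges of these gaps, 11 scored below the median of the list, 0.472, and the one before 16417825 had the highest score, 0.942. Whether reads can be placed uniquely in these stretches was not examined.

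The replicates marked the same places on 3L to a large extent. Of the replicate 1 members, 1119 of 1326 shared at least 1 bp with a replicate 2 cluster, or 84.4% (exact 95% binomial interval 82.3% to 86.3%). Over the whole replicate 1 list this share was 80.3%. Of the replicate 2 members, 1155 of 1396 shared at least 1 bp with a replicate 1 cluster, or 82.7% (80.7% to 84.7%), against 82.4% over the whole list. The mean of both directions was 83.6% ± 1.17 on 3L, 82.8% ± 1.31 on 2L and 83.4% ± 1.82 on 3R (SD over the 2 directions). Both directions compare the same 2 lists, so this SD does not measure a spread between libraries. By length, 82.4% of the bases in replicate 1 members and 83.4% of those in replicate 2 members lay in clusters of the other replicate.

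Sharing depended on width. Below 2 kb, 61.5% of 421 members of replicate 1 and 56.0% of 461 of replicate 2 were found in the other list. From 2 to 5 kb the shares were 92.8% of 626 and 94.3% of 670. From 5 kb upwards all 279 members of replicate 1 and all 265 of replicate 2 had a partner. Wide clusters also overlap others more often by position alone, and this was not separated. Members seen in 1 replicate had median widths of 1584 and 1568 bp and median scores of 0.595 and 0.585, against 3109 and 3028 bp and 0.718 and 0.716 for shared ones.

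**Figure D4:**
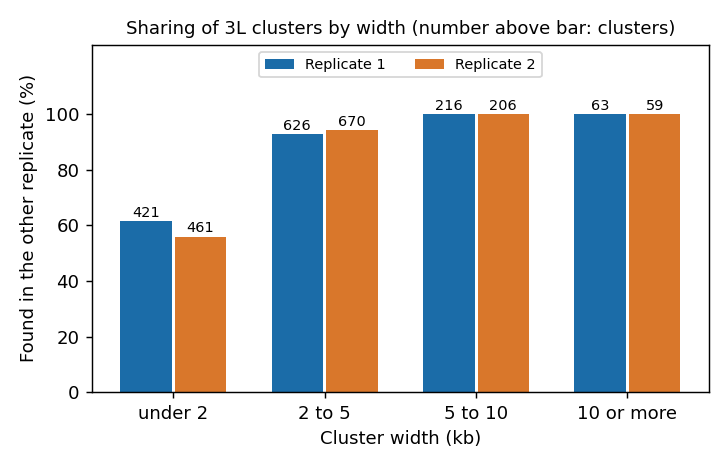
Percentage of 3L clusters that share at least 1 bp with a cluster of the other replicate (y axis) by width class in kb (x axis); numbers above the bars are clusters per class. The share was 61.5% and 56.0% below 2 kb in replicates 1 and 2, and 100% from 5 kb upwards.

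Some unshared clusters lay close to a cluster of the other replicate, but neighbouring clusters within a list lay close as well. Within replicates 1 and 2 the median gap was 3234 and 3257 bp, and 23.4% of gaps were under 1 kb in both. Whether unshared clusters lay closer than this spacing would give was not tested. Of the 207 replicate 1 members without a partner, 34.3% lay within 1 kb of a replicate 2 cluster, at a median distance of 1.64 kb, and 21 lay 10 kb or more away. Of the 241 replicate 2 members without a partner, 28.2% lay within 1 kb, at a median of 2.06 kb, and 29 lay 10 kb or more away. Of these unshared members, 204 of the 207 and 235 of the 241 overlapped a replicate-set cluster. By section, sharing ran from 75.8% (section 5) to 89.5% (section 4) in replicate 1 and from 76.9% (section 3) to 90.0% (section 7) in replicate 2. The sections with the lowest sharing thus differed between the directions.

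Edges and scores were compared over the 852 pairs on 3L in which a cluster of either replicate met no other partner. Start positions differed by a median of 176 bp and end positions by 190 bp, and 54.2% of starts and 52.2% of ends lay within 200 bp. In 10% of pairs the start differed by more than 971 bp. Scores were alike within pairs, with a rho of 0.851 and a Pearson's r of 0.891, and widths had a rho of 0.842, over clusters that are not independent. Subtracting the replicate 1 score from the replicate 2 score gave a median of -0.00926 and an SD of 0.102, and 68.7% of pairs differed by at most 0.1. Replicate 2 scored higher in 386 of the 852. On 2L the score rho was 0.824 over 686 pairs, and on 3R it was 0.858 over 870. Overlaps of other kinds were fewer: 122 replicate 1 members met 2 or more replicate 2 clusters, and 92 replicate 2 members met 2 or more of replicate 1.

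Coverage per 100 kb window ranked alike in both replicates. Pearson's r over the 225 windows was 0.984 and Spearman's rho 0.982, over windows of the same 2 libraries. Replicate 2 minus replicate 1 had a median of 0 and an SD of 3.07 percentage points. Replicate 2 was lower in 110 windows, higher in 96 and equal in 19. The largest difference was in the window 10300001 to 10400000, with 42.6% in replicate 1 and 31.0% in replicate 2. In the opposite direction the largest was 5700001 to 5800000, with 24.2% in replicate 1 and 32.9% in replicate 2. By section, the ratio of replicate 2 to replicate 1 ran from 0.946 in section 5 to 1.06 in section 3.

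**Figure D5:**
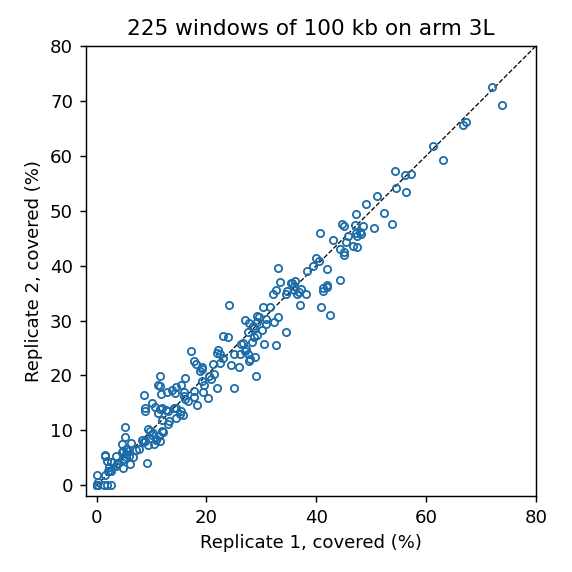
Coverage of 225 windows of 100 kb on 3L in replicate 1 (x axis, %) and replicate 2 (y axis, %); each point is 1 window and the dashed line marks equal values. Points follow the line over the whole range, with a Pearson's r of 0.984 and no difference above 11.6 percentage points.

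In the replicate-set list, 940 of the 1901 members (49.4%) overlapped both replicates, 349 (18.4%) overlapped 1 and 612 (32.2%) overlapped neither. Members overlapping both were 4657 bp wide at the median and made up 77.2% of the covered length. Members overlapping neither were 1331 bp wide at the median and made up 12.3%. In turn, 1323 of the 1326 replicate 1 members and 1390 of the 1396 replicate 2 members overlapped a replicate-set cluster.

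At the centromere-side limit the coverage dropped sharply in both replicate lists and in the replicate-set list, which kept more coverage past the drop. The last member ended at 22400077 in replicate 1, where it was the end of the run of 23 clusters, and the next cluster of that list began at 22707910. In replicate 2 the last member, of 1694 bp with a score of 0.637, ended at 22469205, and the next cluster, of 1308 bp with a score of 0.600, began at 22513721. The 300 kb after the window with the highest mean coverage were covered to 0.0257% in replicate 1 and 2.26% in replicate 2, and to 10.7% in the replicate-set list. In that list the window from 22400001 to 22500000 held 14 clusters over 21.7% of its length. Past the limit, the remaining 2.04 Mb of the arm held 42 and 49 clusters and were covered to 6.83% and 6.43%. The window with the highest mean coverage of the arm therefore lay directly before a stretch with few clusters in both replicates. In the replicate-set list coverage also fell there, from 97.3% in that window to 10.7% over the next 300 kb.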

How the data were processed

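The deposited files are 3 lists of regions of significant enrichment on FlyBase release 5 coordinates, per the file headers. Each region has a start, an end and the authors' score, whose unit and scale carry no statement there. The submitters' processing notes name Bowtie 0.12.7, a short-read aligner. How clusters were called, at what threshold, and how replicates were combined is not given in the sources used here. No read counts are part of the lists, so depth is unknown. The Input libraries were not analysed here on their own.

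Overlaps, widths, gaps (bases between neighbouring members) and covered shares were computed with Python 3.11.15, numpy 2.4.6, pandas 2.3.3 and scipy 1.17.1. Functions were tested on simulated data. A cluster counted as shared with at least 1 bp in common. 2L and 3R were used without 2 Mb at the centromere end. Windows and sections were counted from base 1 of 3L, from base 1 of 2L and from the first base used of 3R. Named regions are the 10 widest and the 5 highest-scoring replicate-set members that overlap both replicates, the 10 most covered windows, the 10 longest gaps and the first and last members; the windows that differed most between replicates, the longest runs, the cluster of highest score at a gap edge and the replicate-set members named in the closing section were chosen after their values were seen. The region set and measures were chosen with earlier results of these data known. Binomial intervals cover counting error only. The gene table at hand is of release 6, so no gene or sequence was read by coordinate.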

Additional observations from a re-analysis of the deposited data

How the results depend on the processing

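Leaving out either replicate gave 22.4% to 22.7% covered, 58.9 to 62.0 clusters per Mb, median widths of 2611 to 2691 bp, median scores of 0.685 to 0.686, median gaps of 3234 to 3257 bp, ratios of the first 7.5 Mb to the rest of 1.07 to 1.10, 17 to 20 empty windows and 13 to 15 dense ones. With members up to 20 Mb the covered share was 22.1%, the median score 0.692, the median gap 3410 bp, the score rho 0.842 and the telomere-side ratio 1.13. With the upper 50% of each list by score, the covered share was 14.8%, sharing 81.9%, the score rho 0.808, the telomere-side ratio 1.21 and the median width 4603 bp. Merging gaps under 1000 bp gave 46.3 clusters per Mb, a median width of 3418 bp and a median gap of 5264 bp, as fewer and wider clusters must. Requiring 50% overlap of both clusters lowered sharing to 67.9% and gave a score rho of 0.870. The telomere-side ratio was 1.31 for the first 2 sections. Over the first 7.5 Mb it turned to 0.983 when clusters per Mb were counted in place of covered bases; the cause was not tested. Over the first 2 sections, a setting chosen after seeing the data, the ratio of clusters per Mb was 1.11 ± 0.0182 (SD, n = 2) and did not turn in either replicate. In the replicate-set list it did turn, to 0.980, with 83.2 clusters per Mb against 84.9 for the rest. Shifting windows by 50 kb gave 20 empty and 16 dense windows. No paired analysis was possible because the Input libraries, which share replicate numbers with the ChIP libraries, have no list used here. The unknown depth means that absence of a cluster is not absence of H3K27me1, and that differences between lists may reflect depth, which was not tested.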

Other observations

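The highest score among the 3L members of the replicate-set list, 1.64, belonged to a cluster of 1009 bp from 14714214 to 14715222 that overlapped neither replicate. The nearest clusters lay 28.6 kb away in replicate 1 and 21.1 kb away in replicate 2. Another such cluster, 21746562 to 21747652 (1091 bp), had the third highest score, 1.38; its nearest clusters lay 11.9 kb away in replicate 1 and 0.362 kb away in replicate 2, with a score of 0.487 in replicate 2. These were the only 2 of the 612 replicate-set members found in neither replicate with a score above 1. Both were narrower than the narrowest member of the replicate lists, 1301 bp. The lists differed in smallest width: 1001 bp in the replicate-set list on 3L, 2L and 3R, and 1301 or 1302 bp in the replicate lists. Of the 612, 285 (46.6%) were narrower than 1301 bp, against 0 of the 940 found in both replicates. No replicate member on these arms was that narrow. Of the 612, 89 (14.5%) scored above the median of the list, 0.472. They were chosen for mention after their values were seen.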
